A study of Mus musculus with 4 samples.

Results

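Ephrin B1, 3 plexins and 5 semaphorins are described here as transcripts of sorted germinal centre B cells. The 9 genes (Efnb1, Plxnb2, Plxnc1, Plxnd1, Sema4a, Sema4b, Sema4c, Sema4d and Sema7a) were taken by symbol as guidance molecules of B cell and T cell contacts, and each matched 1 of 37646 genes in the deposited counts. The donor mice were C57BL/6 of genotype YFPstopF/+Cg1Cre/+: Cre recombinase is expressed from Cg1 (Ighg1) and turns on a yellow fluorescent protein, YFP, by removing a stop cassette. They were studied in a secondary response to sheep red blood cells, with 2 intraperitoneal doses separated by 20 days and a further 10 days before collection of the spleen. Living B220+ YFP+ cells were sorted, and their poly(A) RNA was sequenced in 4 libraries of 1 group, all of them normal controls. Cre marks every cell in which Cg1 was once active, so memory and plasma cells can carry YFP too, and whether every library is a different animal is not stated in the labels. P-values therefore concern only the spread between these libraries, set against that of genes of similar level, and this spread may be technical in part. No lymphoma sample was analysed here.

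Semaphorins are secreted or membrane-bound ligands, and plexins are their main receptors, which act on the cytoskeleton and on integrins through small GTPases. Ephrins are membrane-bound ligands of the Eph receptor tyrosine kinases, and both partners can signal after cells touch. In the germinal centre, ephrin B1 on B cells and Eph receptors on follicular helper T cells, and plexin B2 on B cells and semaphorin 4C on follicular helper T cells, are known pairs that tune how T cells stay beside and help B cells.

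Library totals lay between 13777954 and 14629025 counts, and 3 counts (the upper limit for a gene at 0) amount to 0.205 to 0.218 CPM, counts scaled to the library total. All 10 listed germinal centre genes, among them Bcl6 and S1pr2, reached 1 TPM (a length-corrected share of transcripts) in every library. This does not test the germinal centre label, because 56.5% of protein-coding genes averaged at least 1 TPM and no other cell group was present for comparison. All 15 T cell markers also reached 1 TPM in every library, with a summed level of 284 to 694 TPM against 16086 to 24019 TPM for 10 B lineage markers. Macrophage and monocyte markers summed to 195 to 303 TPM. All 7 plasma cell markers reached 1 TPM in every library and summed to 1997, 1835, 1002 and 1877 TPM in libraries 1 to 4, lowest in library 3. No gene of these 5 lists was at 0 in all libraries. Library 3 differed in sex-linked transcripts: its Y-linked Ddx3y had 1307 counts, where libraries 1, 2 and 4 had 3, 0 and 0, and its Xist had 6 counts, where they had 8922, 8689 and 12160.

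Promoter sequences are shown for the genes at the extremes of level and of variation: Sema7a and Plxnb2 with the highest TPM by union of exons, Efnb1 with the widest spread between libraries and Sema4c with the lowest level. Each is the RefSeq window (GRCm38.p6) from 250 bases before to 50 bases after the most upstream annotated start, printed 5′ to 3′ on the gene's strand, with GC boxes (GGGCGG on either strand) in capitals. The windows lie at chr9:57939862-57940161 (+, Sema7a), chr15:89180739-89181038 (−, Plxnb2), chrX:99135811-99136110 (+, Efnb1) and chr1:36558332-36558631 (−, Sema4c).
Sema7a: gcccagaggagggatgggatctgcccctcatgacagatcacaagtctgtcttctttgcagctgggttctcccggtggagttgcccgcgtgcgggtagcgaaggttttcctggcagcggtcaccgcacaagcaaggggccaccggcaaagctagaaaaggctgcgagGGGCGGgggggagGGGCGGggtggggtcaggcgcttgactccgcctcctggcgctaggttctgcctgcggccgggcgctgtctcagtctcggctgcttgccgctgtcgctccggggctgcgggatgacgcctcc
Plxnb2: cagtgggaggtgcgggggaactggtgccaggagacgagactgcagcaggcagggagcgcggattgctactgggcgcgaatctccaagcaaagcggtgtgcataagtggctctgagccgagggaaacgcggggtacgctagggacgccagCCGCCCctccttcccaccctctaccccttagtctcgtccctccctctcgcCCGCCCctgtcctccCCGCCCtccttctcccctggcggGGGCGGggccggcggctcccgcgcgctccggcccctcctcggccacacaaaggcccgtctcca
Efnb1: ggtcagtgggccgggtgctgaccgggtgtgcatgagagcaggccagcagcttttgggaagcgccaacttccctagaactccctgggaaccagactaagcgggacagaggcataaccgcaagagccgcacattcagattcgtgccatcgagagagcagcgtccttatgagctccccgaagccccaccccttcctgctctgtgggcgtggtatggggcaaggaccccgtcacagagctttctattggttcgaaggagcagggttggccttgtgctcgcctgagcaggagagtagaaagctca
Sema4c: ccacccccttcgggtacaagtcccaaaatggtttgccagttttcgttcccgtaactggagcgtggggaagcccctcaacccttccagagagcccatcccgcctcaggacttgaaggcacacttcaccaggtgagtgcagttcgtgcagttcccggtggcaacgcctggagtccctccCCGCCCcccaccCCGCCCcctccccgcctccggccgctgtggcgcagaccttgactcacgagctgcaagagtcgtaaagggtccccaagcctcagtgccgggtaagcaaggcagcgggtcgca

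All 9 genes had a RefSeq promoter window, and 7 of them held a GC box, against 35.7% of all 32851 windows of this length. The members have 1 window each, whereas the background holds every window, several for some genes, and is not limited to expressed genes. The Plxnb2 and Plxnc1 windows each held 4 GC boxes, those of Sema7a, Sema4b, Sema4c and Plxnd1 held 2, and that of Sema4a held 1. The Efnb1 and Sema4d windows had none, and each held 1 CCAAT box (CCAAT, in 37.4% of all windows), which no other member had. The windows of Plxnc1, Plxnb2, Sema4b, Sema7a, Plxnd1, Sema4c and Efnb1 held 30, 27, 26, 23, 23, 19 and 14 CpG dinucleotides, against a median of 7 over all windows, and those of Sema4a and Sema4d held 4 and 2. The window of Sema4c, the lowest member, had as many GC boxes as those of Sema7a and Sema4b. No member window held TATAAA (13.6% of all windows) or the TTCNNNGAA core bound by BCL6 and STAT factors (8.30%), each searched on both strands. The most upstream RefSeq start of Sema4d lies 37064 bases inside the GENCODE gene, so its window is not that of the outermost start. These matches describe the letters only.

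The 9 genes ranged from 0.449 to 94.4 TPM on average, and 8 of them exceeded 1 TPM in all 4 libraries. Of 18712 protein-coding genes, 56.5% averaged at least 1 TPM, and the median was 2.45 TPM. Sema7a, Plxnb2, Sema4d and Sema4b formed the top of the list, Efnb1 and Plxnc1 the middle, and Sema4a and Plxnd1 a low group. Sema4c was lowest, with 10 to 18 counts a library, above the limit of 3 counts for a gene at 0. All TPM values are relative to totals in which mitochondrial and immunoglobulin transcripts take a large part: mitochondrial genes held 18.1 to 23.3% and immunoglobulin genes 2.35 to 5.48% of the counts. Without them in the total, the mean levels of the 9 genes were 2.14- to 2.21-fold higher. The change was not uniform over libraries: Plxnb2 went from 68.3 to 167 TPM in library 2 and from 113 to 216 TPM in library 3. Its highest over lowest ratio went from 1.66 to 1.29, so differences between libraries in TPM depend in part on these totals.

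**Figure D1:**
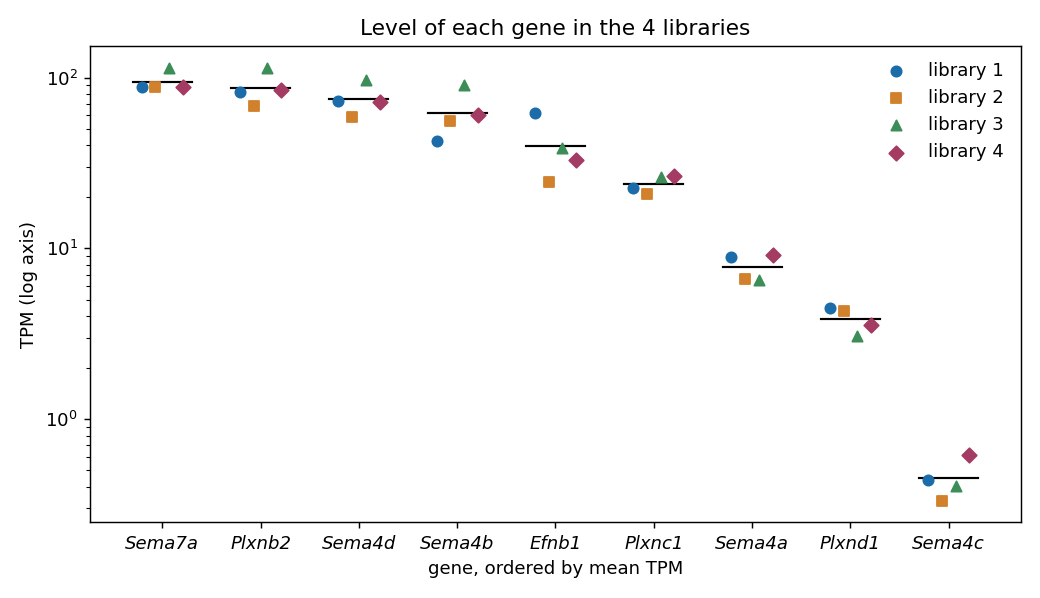
TPM (log axis) of the 9 genes in each library, ordered by mean TPM, with points for libraries and a bar for the mean. Levels run from 94.4 TPM for Sema7a to 0.449 TPM for Sema4c, and Efnb1 and Sema4b show the widest separation of points among the abundant genes.

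Among the ligands, with the union of exons as length, Sema7a (chromosome 9, 57940112 to 57962865, mm10), a glycolipid-anchored semaphorin that binds plexin C1 and β1 integrins, had the highest mean TPM. With the longest transcript as length Sema4d was higher, at 111 TPM against 81.7 TPM for Sema7a. It stood at 87.8, 88.2, 114 and 87.4 TPM in libraries 1 to 4, a mean of 94.4 ± 13.3 TPM (SD, n = 4), above 95.4% of protein-coding genes. Library 3 was the highest and the other libraries lay within 1 TPM of each other. On the scale of CPM normalised by the trimmed mean of M values (TMM), which corrects for library composition, the values were 132, 146, 148 and 124, and library 3 no longer stood apart.

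Sema4d (chromosome 13, 51685529 to 51793747), or CD100, which binds plexin B1 in many tissues and CD72 on lymphocytes, stood at 72.6, 58.4, 97.3 and 71.5 TPM, a mean of 74.9 ± 16.2 TPM. Library 3 was highest and library 2 lowest. Sema4b (chromosome 7, 80186841 to 80226527), another membrane-bound class 4 semaphorin, stood at 42.4, 55.9, 90.6 and 60.1 TPM, a mean of 62.2 ± 20.4 TPM. Its lowest value was in library 1 and its highest in library 3, a ratio of 2.14.

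Sema4a (chromosome 3, 88435959 to 88461182), known from dendritic cells and T helper priming, stood at 8.85, 6.56, 6.52 and 9.11 TPM, a mean of 7.76 ± 1.41 TPM. Libraries 1 and 4 lay above libraries 2 and 3. The summed T cell markers followed the same division, at 694 and 611 TPM in libraries 1 and 4 and 291 and 284 TPM in libraries 2 and 3. So did the sum of 10 dendritic cell markers, at 81.9 and 100.2 TPM and at 63.5 and 66.3 TPM. Bst2 gave most of that sum, at 52.3, 39.3, 39.8 and 62.2 TPM in libraries 1 to 4. Flt3 went another way, highest in library 3 at 20.2 TPM. The division was not particular to these lists: the macrophage, neutrophil, platelet and plasma cell sums shared it. The germinal centre and B lineage sums did not. The part of any such cells in the Sema4a level was not tested.

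Sema4c (chromosome 1, 36548639 to 36558349), the ligand of plexin B2, was the 1 member under 1 TPM. It had 13, 10, 11 and 18 counts in libraries 1 to 4, or 0.440, 0.333, 0.406 and 0.619 TPM, above only 38.3% of protein-coding genes. The exact 95% Poisson intervals overlapped in all libraries. They ran from 0.348 to 1.33 CPM in library 2 and from 0.746 to 1.99 CPM in library 4. Such overlap is not a test of a difference between libraries. The edgeR variation test given below did not call Sema4c (adjusted p = 0.992). The Poisson intervals and their limits hold for counting error alone, because PCR copies were not told apart by molecular identifiers. D430040D24Rik, on the opposite strand, shares 334 exon bases with Sema4c and had 1 to 3 counts. Whether the counting used strand was not given.

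The 5 semaphorins together came to 212, 209, 309 and 229 TPM. Sema7a supplied 39.7% ± 2.47 of this sum, Sema4d 31.2% ± 2.60, Sema4b 25.6% ± 3.96, Sema4a 3.35% ± 0.94 and Sema4c 0.192% ± 0.061. In percentage points the share of Sema4b varied most, at 20.0% in library 1 and 26.3 to 29.3% in the others. Relative to their size the small shares varied more, from 2.11 to 4.17% for Sema4a and from 0.131 to 0.270% for Sema4c.

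Among the receptors, Plxnb2 (chromosome 15, 89155549 to 89180788), the plexin that germinal centre B cells use with semaphorin 4C, stood at 82.4, 68.3, 113 and 84.2 TPM, a mean of 87.0 ± 18.8 TPM and above 94.9% of protein-coding genes. It gave 75.4% ± 2.89 of the summed TPM of the 3 plexins. Library 3 was highest and library 2 lowest, as for Sema4d and for 30.9% of tested genes in TPM. In normalised CPM both genes kept this placing, which 10.6% of tested genes shared. Plxnb2 exceeded its ligand Sema4c by 136- to 279-fold per length within the same library.

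Plxnc1 (chromosome 10, 94790866 to 94944835), the plexin that binds semaphorin 7A, stood at 22.4, 20.7, 26.0 and 26.5 TPM, a mean of 23.9 ± 2.81 TPM. It was the steadiest of the 9 genes, with a highest over lowest ratio of 1.12 in normalised CPM. Its ligand Sema7a was 3.30- to 4.39-fold higher per length in every library.

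Plxnd1 (chromosome 6, 115954811 to 115995005), a receptor of semaphorins 3E and 4A, stood at 4.49, 4.31, 3.06 and 3.57 TPM, a mean of 3.86 ± 0.66 TPM. Library 3 was lowest, also in normalised CPM, at 8.79 against 11.2 to 15.8 in the others. In normalised CPM, library 3 was also lowest for the summed markers of T cells, macrophages, dendritic cells, neutrophils, plasma cells and endothelial and stromal cells. The macrophage sum was 156 there and 192 to 252 in the others, although Cd68 was highest in library 3, at 31.2 against 25.05 to 30.7. The plasma cell sum was 1234 against 2330 to 2670, and Jchain alone gave 624 in library 3. Irf4 was lowest in library 1, at 202 against 314 in library 3, where the other listed plasma cell genes were lowest. The endothelial and stromal sum was 80.7 against 91.8 to 124, of which Pecam1 alone gave 78.1 in library 3. The contribution of such cells was not tested. In bulk RNA, fewer cells of a type and less RNA per cell cannot be told apart.

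Efnb1 (chromosome X, 99136130 to 99148991), which encodes ephrin B1, a surface protein of germinal centre B cells, stood at 62.3, 24.5, 38.6 and 32.7 TPM, a mean of 39.5 ± 16.2 TPM. Library 1 was the highest by a wide margin and the other libraries lay between 24.5 and 38.6 TPM. Library 3, which differed from the others in Ddx3y and Xist, lay within the range of the others for this X-linked gene. Without library 1 the mean was 31.9 TPM.

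The order of levels was examined within libraries, with neighbours counted as ordered where all 4 libraries put them the same way and the mean difference of log2(TPM + 1) exceeded its SD. Of the 8 neighbouring pairs, 5 met this. Plxnd1 lay above Sema4c by 1.74 ± 0.26, Sema4a above Plxnd1 by 0.85 ± 0.26, Plxnc1 above Sema4a by 1.52 ± 0.25, Efnb1 above Plxnc1 by 0.63 ± 0.56 and Plxnb2 above Sema4d by 0.21 ± 0.02. Sema7a was above Plxnb2 by 0.13 ± 0.16, Sema4d above Sema4b by 0.29 ± 0.32 and Sema4b above Efnb1 by 0.67 ± 0.82, differences smaller than their spread. Library 1 reversed the last pair, with Efnb1 above Sema4b by 0.54. Over 4 libraries an exact two-sided sign-flip test cannot reach p under 0.05, and none is given. The direction of 2 ordered pairs turned with the length used: with the longest annotated transcript as length, Plxnb2 minus Sema4d was -0.31 (and Sema7a minus Plxnb2, not an ordered pair, -0.11), and without length, on log2(CPM + 1), Efnb1 minus Plxnc1 was -0.62 and Sema7a minus Plxnb2 -1.09. Without library 3 the difference of Efnb1 and Plxnc1 no longer exceeded its SD.

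How far the libraries differed at each gene was tested with edgeR, as the ratio of each gene's quasi-dispersion to the trend at its level. At a Benjamini-Hochberg adjusted p under 0.05, 0 of the 9 genes were called, and 0.00835% of the 11982 genes tested (1 gene) were. At an unadjusted p under 0.05 the edgeR test marked Efnb1 alone among the 9, where 4.97% of all tested genes were marked, so the members' count was near the background. limma-voom also called none and marked Efnb1 alone, and DESeq2 called none of the 9 a dispersion outlier. Sema4b was marked as well in some edgeR alternatives. Its unadjusted edgeR p was 0.034 without the low-count filter, 0.048 without immunoglobulin and mitochondrial genes and 0.035 without library 2. Without library 1, edgeR marked 0 of the 9. All 9 genes passed the filter on low counts. The median ratio to the trend was 0.967 over the 9 genes and 0.895 over all tested genes.

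Efnb1 had the largest ratio of the 9, at 9.48 times the trend (edgeR quasi-dispersion, adjusted p = 0.733), and its adjusted p ran from 0.198 to 0.989 over the alternatives. It stood at 97.8, 42.4, 52.4 and 48.7 normalised CPM in libraries 1 to 4, a highest over lowest ratio of 2.30, and its SD of log2(normalised CPM + 1), 0.53, exceeded that of 93.6% of tested genes. This spread rested on library 1: without it the ratio to the trend was 0.685 (edgeR, adjusted p = 0.989).

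Sema4b had the next largest ratio, 4.69 (edgeR, adjusted p = 0.990). Its normalised CPM of 109, 158, 201 and 146 placed library 1 lowest, where Efnb1 was highest. The ratio of Sema4b to Efnb1 in TPM was 0.680 in library 1 and 2.29, 2.35 and 1.84 in libraries 2, 3 and 4, so library 1 lay outside the range of the others.

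Plxnd1 (ratio 1.96), Sema4a (1.46), Sema4d (0.967), Plxnb2 (0.898), Sema7a (0.503), Sema4c (0.381) and Plxnc1 (0.220) lay closer to or below the trend, each at an adjusted p of at least 0.990. The normalised CPM of Plxnc1 was 85.1, 86.9, 85.4 and 95.5, and its SD on the log2 scale, 0.08, was below that of nearly all tested genes: 6.13% had a smaller one. Sema7a, at an SD of 0.12, exceeded 18.4%. The receptor and ligand genes of this known pair were thus both among the steadier transcripts, although their adjusted p-values give no test of steadiness.

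**Figure D2:**
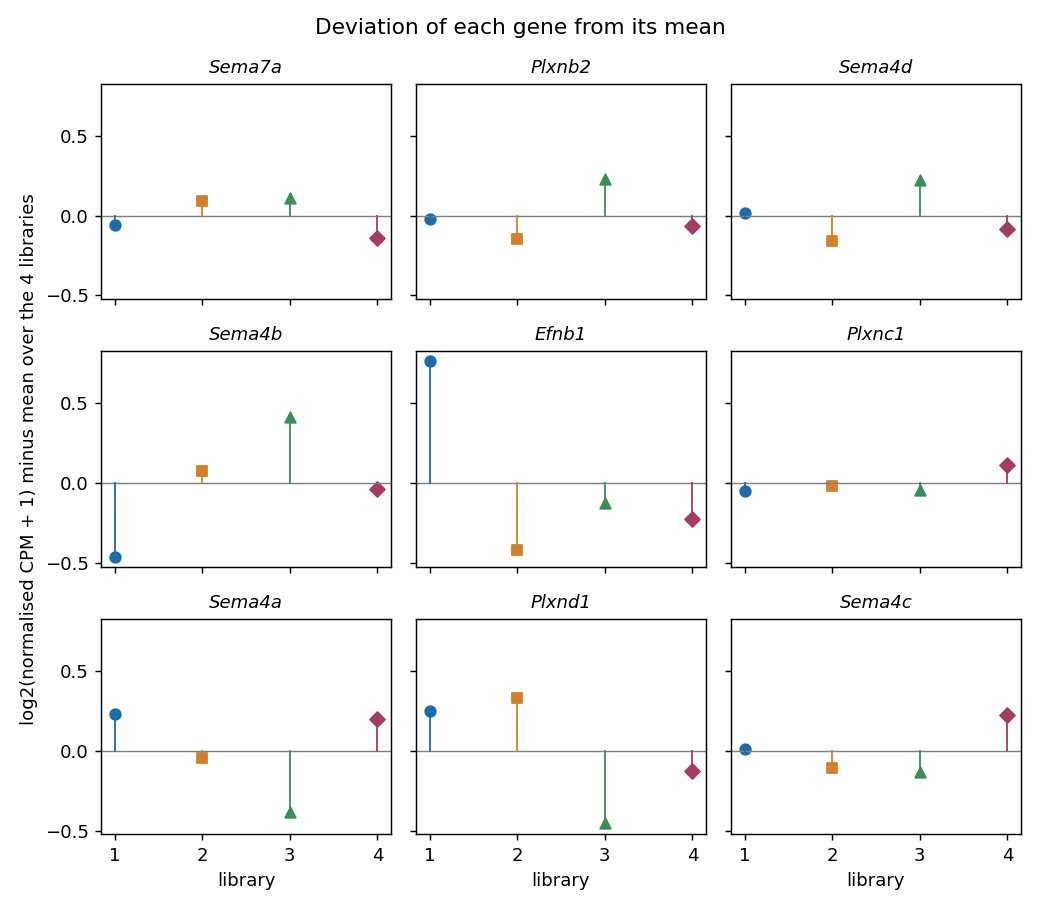
Deviation of each gene from its own mean, as log2(normalised CPM + 1) minus the mean over the 4 libraries, with 1 panel a gene and 1 point a library. Efnb1 deviates by 0.77 in library 1 and Sema4b by -0.46, while Plxnc1 stays between -0.05 and 0.11, and Plxnb2 and Sema4d show nearly the same 4 values.

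**Figure D3:**
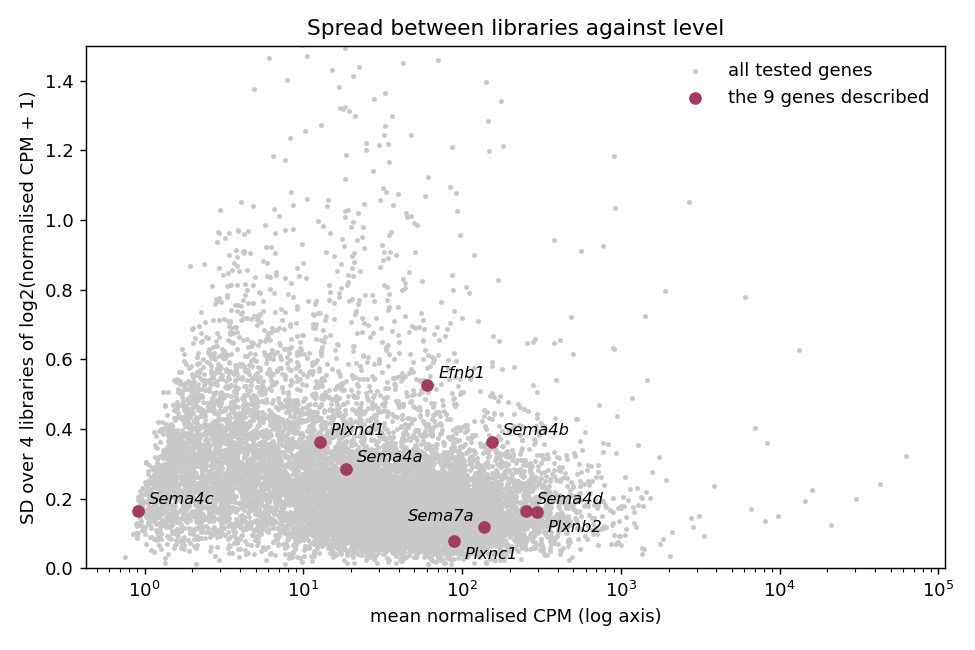
SD over the 4 libraries of log2(normalised CPM + 1) against mean normalised CPM (log axis) for the 11982 tested genes, with the 9 genes described in colour; 31 genes lie above the top of the axis at 1.5. Efnb1 has a larger SD than 93.6% of tested genes and Plxnc1 a larger one than 6.13%.

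Among the pairs of members, Plxnb2 and Sema4d moved together most closely. Their TPM ratio was 1.13, 1.17, 1.16 and 1.18 in libraries 1 to 4, a coefficient of variation of 1.58%, where counting error alone would give about 2.29%. It was the smallest of the 36 pairs of members, whose median was 29.3%, and was picked after its value was seen. The next smallest, Sema7a with Plxnb2, had 11.7%, and the largest, Sema4b with Plxnd1, had 51.1%. The ratio of 2 genes does not depend on library scaling. With 4 libraries no correlation is given. The closeness was not shown to be particular to this pair. Both genes were highest in library 3 and lowest in library 2, in TPM and in normalised CPM. This placing was shared by 30.9% of tested genes in TPM and by 10.6% in normalised CPM. In the search for similar patterns given below, Sema4d was not among the genes listed as closest to Plxnb2. How many other genes keep as steady a ratio to Plxnb2 was not counted.

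Germinal centre genes were set beside Efnb1 because ephrin B1 marks these cells. In normalised CPM, library 1 was highest for 4 of 10 listed genes and library 3 for the other 6, where 28.9% and 28.2% of all tested genes were highest in those libraries. Gcsam, a germinal centre signalling adaptor, stood at 144, 42.8, 76.9 and 73.9 normalised CPM, and Mybl1, a transcription factor, at 149, 52.6, 78.1 and 75.4. Like Efnb1, both genes were highest in library 1 and lowest in library 2, a placing that 9.93% of all tested genes shared. Bcl6, the repressor that directs the germinal centre state, was also highest in library 1, at 305 against 158 to 221. Fas, Mef2b and Neil1 did not follow: they were highest in library 3. The edgeR test called none of the 10 and marked Gcsam, Mybl1 and Bcl6 at an unadjusted p under 0.05. Over all tested genes it marked 4.97%.

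T cells, which can also express ephrin B1, gave more marker RNA in the same library. All 15 T cell markers were marked at an unadjusted p under 0.05 in the edgeR test, against 4.97% of all tested genes. None was called after adjustment. Their summed normalised CPM was 622, 277, 223 and 537. Library 4 was thus near library 1 in T cell markers, whereas Efnb1 in library 4, at 48.7 normalised CPM, lay between libraries 2 and 3. Platelet markers summed to 90.8 in library 1 and to 37.4 to 45.1 in the others. The part of T cells and platelets in the Efnb1 level was not tested.

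**Figure D4:**
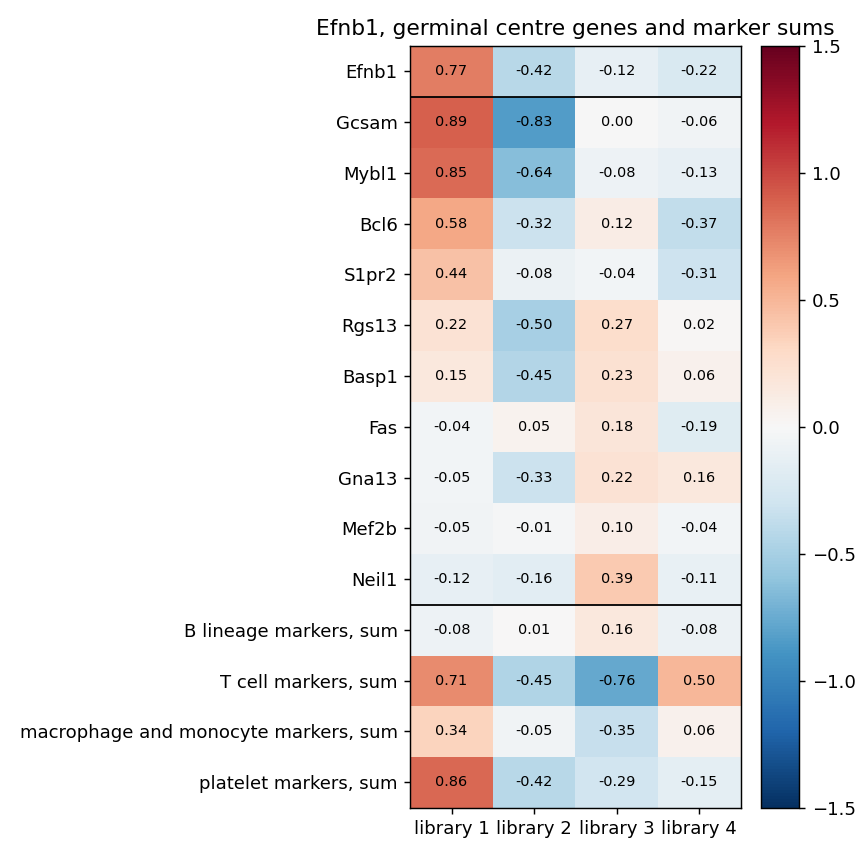
Deviation from the mean over the 4 libraries, on the log2 scale of normalised CPM (plus 1 for single genes), for Efnb1, 10 germinal centre genes and the sums of 4 marker lists. Efnb1, Gcsam and Mybl1 are raised in library 1 and lowest in library 2, and the T cell sum is raised in libraries 1 and 4.

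Genes with the most similar pattern were sought among those with a mean of at least 1 CPM, outside the immunoglobulin and T cell receptor segments, by the root mean square difference of log2(CPM + 1) after centring each gene. For Efnb1, the closest of 4268 candidates with comparable spread were Hbb-bh1, a β-like globin gene, at 0.032, Gm28417 at 0.042 and Padi2, a peptidylarginine deiminase gene, at 0.065. For Plxnb2, the closest of 11080 were Ppif, which encodes a mitochondrial cyclophilin, at 0.0091, Mipep, a mitochondrial peptidase gene, at 0.012 and Enpp1, an ectoenzyme gene, at 0.013. Sema4d was not among these 3. How many other genes come nearly as close was not counted. Over only 4 libraries the lists are a description and no evidence of a link between genes.

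The rest of the 4 families lay mostly under 1 TPM. The 9 genes were chosen with earlier results of these data known, so their contrast with the rest is a description. Of 15 other semaphorins, 1 reached 1 TPM in all libraries: Sema6b at 2.32 ± 0.34 TPM, followed by Sema4f at 0.799 ± 0.162 and Sema4g at 0.584 ± 0.380. Of 8 other plexins and neuropilins, 1 did so, Plxna3 at 4.33 ± 0.68 TPM, with the neuropilin gene Nrp2 at 0.943 ± 0.290 and Plxna1 at 0.672 ± 0.268. Plxnb1, the plexin best known to bind semaphorin 4D, was at 0.352 ± 0.197 TPM. It was named after its value was seen. Cd72, the lymphocyte receptor of semaphorin 4D, stood at 199 ± 33.4 TPM, above all 9 members.

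Other receptors of semaphorins were present as well. Itgb1, the β1 integrin chain that semaphorin 7A binds, stood at 58.6 ± 10.7 TPM, and Timd2, a mouse receptor of semaphorin 4A, at 18.1 ± 7.13 TPM. Itga1, the α chain that pairs with β1 in the integrin receptor of semaphorin 7A, was at 0.077 ± 0.080 TPM. It too was named after its value was seen. Timd2 stood at 10.2, 14.8, 26.4 and 21.1 TPM, lowest in library 1.

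Efnb1 was the 1 abundant ephrin. Of 7 others, Efnb3 reached 1.36 ± 0.36 TPM, Efnb2 0.569 ± 0.079 and Efna2 0.405 ± 0.216, so Efnb1 exceeded the next ephrin in every library. Of 14 Eph receptors none reached 1 TPM in all libraries. The highest were Epha2 at 1.04 ± 0.78 TPM, Ephb6 at 0.811 ± 0.540 and Epha1 at 0.129 ± 0.116. Ephb6, a receptor of ephrin B1 known from T cells, stood at 1.61, 0.649, 0.404 and 0.586 TPM in libraries 1 to 4. Summed T cell markers stood at 694, 291, 284 and 611 TPM, so library 4 was near library 1 in T cell markers but not in Ephb6. The part of T cells in it was not tested.

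**Figure D5:**
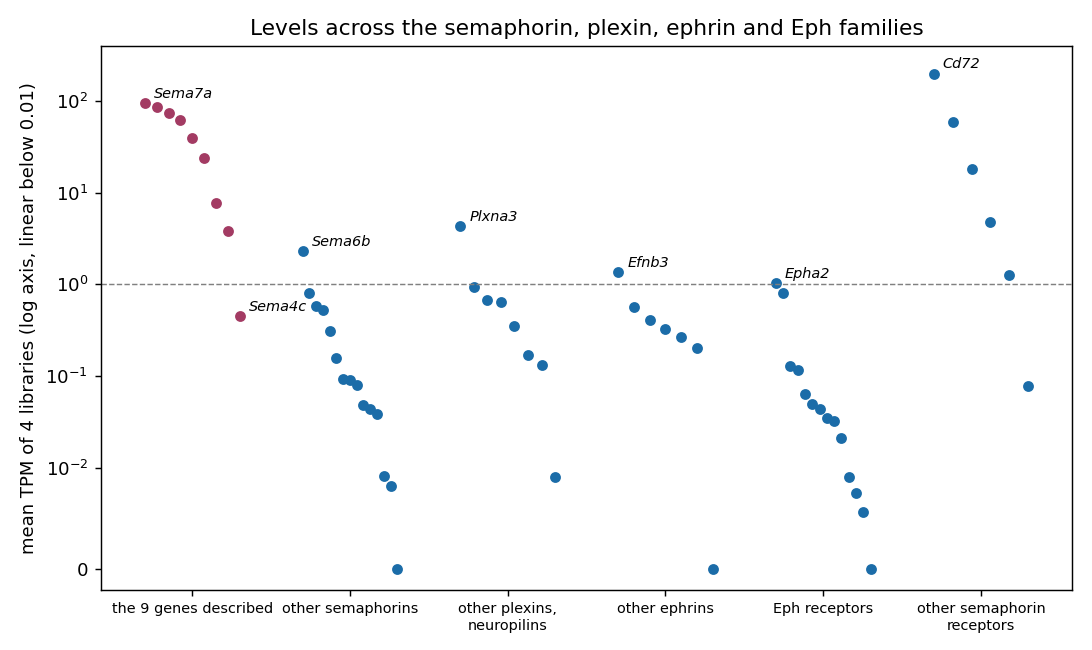
Mean TPM of 4 libraries (log axis, linear below 0.01) for each gene of the semaphorin, plexin, ephrin and Eph families and of other semaphorin receptors, 1 point a gene, with a dashed line at 1 TPM. Of the 9 genes 8 lie above the line, against 1 gene in each of the 4 family columns beside them. The 9 genes were chosen from these families with earlier results of these data known, so this contrast is not a test.

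Genes that transmit plexin and ephrin signals were broadly present. Of 31 listed, 30 matched a row, 23 reached 1 TPM in all libraries and 14 averaged at least 10 TPM. The actin-severing gene Cfl1 led at 847 ± 201 TPM, followed by the small GTPase genes Rap1b at 213 ± 36.5 and Rac1 at 74.1 ± 10.7. Mical1, an actin oxidase that acts below plexins, stood at 73.4 ± 13.6, and Fyn, a Src family kinase, at 69.3 ± 13.0. Rap1a, Rhoa, Pak2, Rras2, Adam10, Gipc1, Sdcbp, Gsk3b and Rras followed, from 62.1 ± 10.6 TPM for Rap1a to 17.2 ± 1.53 TPM for Rras. The guanine nucleotide exchange factors that bind B-type plexins were lower, Arhgef11 at 7.32 ± 1.04 and Arhgef12 at 4.94 ± 0.28 TPM, and the receptor kinases Met and Erbb2, which associate with plexin B1 in other cells, were at 0.087 ± 0.043 and 0.229 ± 0.157 TPM. These 4 were named after their values were seen.

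In the variation test, none of the 41 tested genes of these family, receptor and signalling lists was called after adjustment. Nck1, an adaptor of the ephrin pathway, was the 1 gene at an unadjusted p under 0.05 in edgeR (adjusted p = 0.962). Over all tested genes, 4.97% were so marked. Nck1 had 12.7, 9.54, 5.62 and 7.34 TPM in libraries 1 to 4. Highest in library 1 and lowest in library 3, it did not share the pattern of Efnb1.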

How the data were processed

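The deposited values are whole read counts per gene, 1 table a library, which the authors made with STAR 2.5.2b and featureCounts 1.6.0 on mm10 after FastQC, per the submitters' processing notes. Strand setting, annotation release and handling of multi-mapped reads: not given in the sources used here.

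Exon lengths and positions came from GENCODE M21 (GRCm38); 37536 of 37646 identifiers matched. TPM used the union of exons. Normalised CPM used TMM factors. Libraries are numbered in accession order. The members and lists were chosen with earlier results of these data known. Named genes are the 9 members, the 3 highest of each related list, any listed gene of at least 10 TPM and the nearest patterns, with T cell receptor segments left out beside immunoglobulin segments. Germinal centre and marker genes were named as listed, and 1 germinal centre gene is not reported here.

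The variation test used R 4.3.3 and edgeR 4.0.16 (filterByExpr, TMM, intercept-only glmQLFit with legacy = FALSE; quasi-dispersion over trend against the upper tail of F; Benjamini-Hochberg at 0.05 over 11982 genes). DESeq2 1.42.0 and limma 3.58.1 were alternatives. The test was also run on simulated counts in which some genes were raised strongly in a single library. Rises as small as the differences between libraries at the members were not simulated, and recovery is not reported here. Promoters came from RefSeq (GRCm38.p6).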

Additional observations from a re-analysis of the deposited data

Results flagged for a closer look

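Sema7a in library 3, at 114 TPM, lay far from the other libraries (87.8, 88.2 and 87.4 TPM): its gap to the nearest value was 0.973 of the range, above Dixon's 95% critical value for 4 samples. Chance marks about 1 in 20 groups, and all 9 members were examined. The gap was 0.578 of the range in CPM and 0.393 without immunoglobulin and mitochondrial genes in the TPM total, both under the critical value and both examined after the data were seen. In TPM, 53.0% of 11974 tested genes with a length were highest in library 3, against 28.2% in normalised CPM. Efnb1 (0.820, library 1 highest) and Plxnc1 (0.8285, library 4 highest) lay just under the critical value in normalised CPM. Without immunoglobulin and mitochondrial genes in the TPM total, Plxnc1 reached 0.854, above the critical value, with library 4 highest. Its highest over lowest ratio on that scale was 1.13. Efnb1 stood at 0.828 there, just under the critical value. These values too were examined after the data were seen.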

How the results depend on the processing

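No paired analysis was possible because all 4 libraries belong to 1 group. The count of variable genes, 1 in the main test, was 262 without a filter on low counts, 63 with robust edgeR, 159 as DESeq2 dispersion outliers, 0 with limma-voom (603 at an unadjusted p under 0.05), 0 without immunoglobulin and mitochondrial genes (606) and 0 to 19 with 1 library left out: 0 without library 2 (557), 3 without library 4 and 19 without library 3. None of the 9 members was called under the 11 alternatives, although Sema4c was not tested with a minimum mean of 1 CPM. The count of ordered neighbours, 5 of 8, was 4 with the longest transcript, 6 without length and 5 to 7 with 1 library left out. Plxnb2 minus Sema4d turned to -0.31 with the longest transcript, Efnb1 minus Plxnc1 to -0.62 in CPM, and Sema7a minus Plxnb2 to -1.09 in CPM and -0.11 with the longest transcript. Of 63 member levels under alternatives, 52 stayed within 1 SD; the other 11 were the 9 without immunoglobulin and mitochondrial genes and, with the longest transcript, Sema4a (11.3 TPM) and Sema4d (111 TPM). Sema4c rests on 10 to 18 counts.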
